A study of Gossypium hirsutum with 6 samples.

Results

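MYB3 (Gh_A08G0299), MYB6 (Gh_A11G1492) and MYB330 (Gh_D13G1257) are 3 MYB transcription factor genes of upland cotton, Gossypium hirsutum, out of 65894 genes in the deposited table. The names are those that the study gave to these IDs, and the IDs place the genes on chromosomes A08, A11 and D13. The study selected them on the expression values of these same libraries, as genes lower in the fiberless mutant than in the wild type. Their difference between the lines is therefore given as a description, and where calls of a genome-wide fit are counted, nothing is read from them. The samples were ovules of the field-grown fiberless mutant Xu142fl (Xuzhou142fl) and of its wild type Xu142 (Xuzhou142), with 3 biological replicates of each line. The ovules were dissected from floral buds, and those of −3 and −1 days post anthesis (DPA) were pooled in each library, in shares that were not stated. The fiberless trait and any further genetic difference between the lines cannot be told apart in this design.

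MYB proteins bind DNA through a repeated helical domain and form one of the largest families of plant transcription factors. In Arabidopsis, MYB3 is a repressor of genes of phenylpropanoid synthesis, the route to lignin and flavonoids, and MYB6 belongs to the same subgroup of the family. In Antirrhinum, MYB330 was described as a MYB protein that represses phenylpropanoid and lignin synthesis when it is overexpressed in tobacco. Other MYB proteins, the MIXTA-like MMLs, are known for their part in the differentiation of epidermal cells, from which cotton fibers grow. The files hold expression values only, and no protein function was measured here.

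All 3 genes were expressed in both lines, and each stood at somewhat under 50% of its wild type level in Xu142fl. FPKM, the unit of the deposited values, counts sequenced fragments relative to transcript length and to the mapped reads of the library. Levels of different genes can thus be compared only roughly, since reads of near-identical copies are split between them. MYB3 had 33.79, 28.91 and 32.74 FPKM in Xu142fl replicates 1 to 3, against 79.48, 70.17 and 74.22 FPKM in Xu142 replicates 1 to 3. Every Xu142fl library lay below every Xu142 library, and the lowest Xu142 value was 2.08 times the highest Xu142fl value. The means were 31.8 ± 2.57 FPKM in Xu142fl and 74.6 ± 4.67 FPKM in Xu142 (SD, n = 3 each), which put MYB3 at 42.6% of its wild type mean.

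MYB6 was a gene of moderate level. It had 10.08, 7.26 and 8.72 FPKM in Xu142fl replicates 1 to 3, against 22.14, 16.45 and 18.6 FPKM in Xu142 replicates 1 to 3. The lines did not overlap, although the gap between them was narrower than for MYB3, with the lowest Xu142 value 1.63 times the highest Xu142fl value. MYB6 averaged 8.69 ± 1.41 FPKM in Xu142fl and 19.1 ± 2.87 FPKM in Xu142 (SD, n = 3 each), so the Xu142fl mean was 45.6% of that of Xu142.

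MYB330 was the weakest of these genes. It had 5.48, 5.91 and 7.82 FPKM in Xu142fl replicates 1 to 3, against 13.72, 12.76 and 13.82 FPKM in Xu142 replicates 1 to 3. Again every Xu142fl value lay below every Xu142 value, and the Xu142fl libraries were the more scattered, with replicate 3 above the other two. MYB330 averaged 6.40 ± 1.25 FPKM in Xu142fl and 13.4 ± 0.585 FPKM in Xu142 (SD, n = 3 each), 47.7% of the wild type mean. The SD was 19.5% of the mean in Xu142fl and 4.36% in Xu142.

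**Figure D1:**
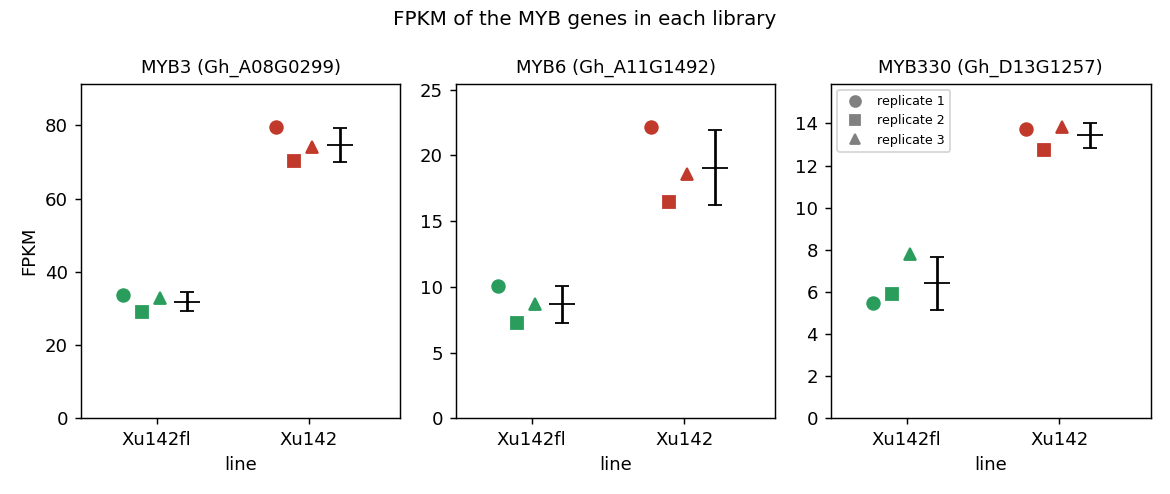
FPKM (vertical axis, from 0) of MYB3, MYB6 and MYB330 in the 3 Xu142fl libraries (green) and the 3 Xu142 libraries (red). Points are libraries, with the shape giving the replicate, and the black line and bar are mean and SD. In each panel all green points lie below all red points, and the panels have different scales, MYB3 reaching 79.48 FPKM and MYB330 13.82 FPKM.

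On the scale of log2(FPKM + 0.1), the log2 fold change of Xu142fl against Xu142 was -1.23 for MYB3 (standard error 0.09), -1.13 for MYB6 (0.16) and -1.07 for MYB330 (0.15). These estimates come from a limma fit of the 56395 genes that averaged 0.1 FPKM or more, whose median log2 fold change was 0.01. All 3 genes passed this filter. Of all genes tested, 5.13% had a lower log2 fold change than MYB3, 5.96% a lower one than MYB6 and 6.53% a lower one than MYB330. All 3 genes were lower in Xu142fl without overlap between the lines, as were 19.5% of all genes tested. The ratios of the Xu142 to the Xu142fl mean lay just above 2, at 2.35 for MYB3, 2.19 for MYB6 and 2.098 for MYB330.

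The study kept genes at 2-fold or more and a Q-value no higher than 0.001. With the same 2 numbers as limits, applied here to the fold change and the Benjamini-Hochberg adjusted p of limma, 1 of the 3 genes, MYB3, was called, where 0.555% of all genes were called lower. With the limit on the adjusted p set at 0.05, all 3 genes were called, where 4.47% of all genes were called lower. The genes were selected on this contrast, so these counts are no evidence of a difference. The call of MYB3 at 0.001 was lost when any 1 of the 6 libraries was left out. Without Xu142fl replicate 1, the log2 fold change of MYB330 was -0.97, which is under 2-fold. With a pseudocount of 1 FPKM it was -0.98, and in both cases MYB330 was no longer called at 0.05. In ovules measured as a whole, fewer cells that express a gene and less RNA of it per cell cannot be told apart.

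**Figure D2:**
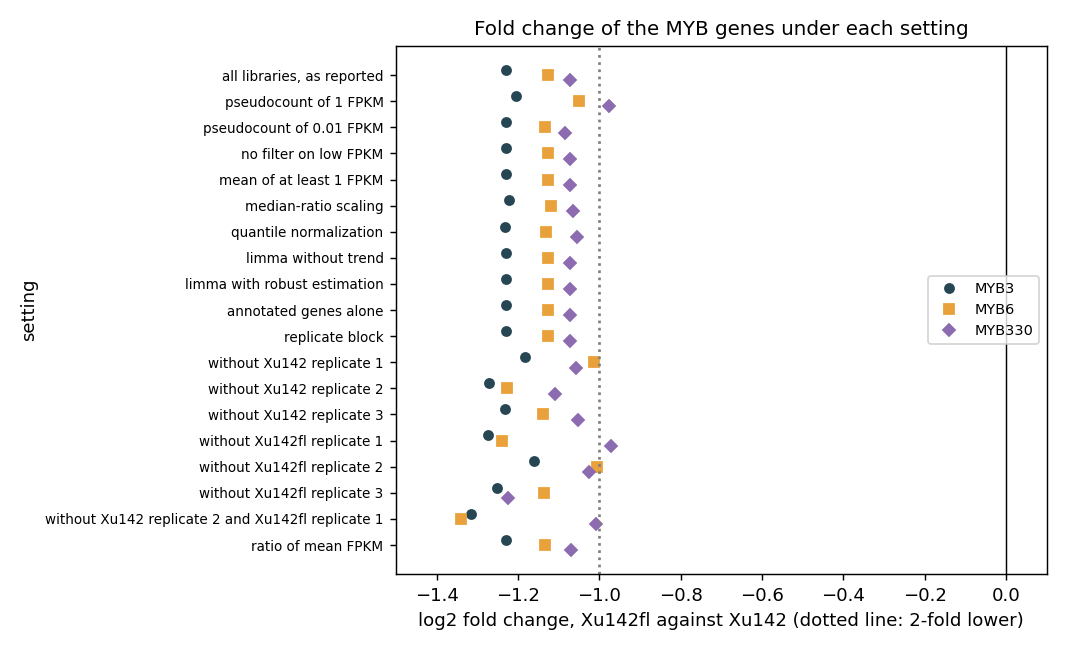
Log2 fold change of Xu142fl against Xu142 (horizontal axis) for MYB3 (circles), MYB6 (squares) and MYB330 (diamonds) under each setting of the analysis (vertical axis). The solid line marks no difference and the dotted line a 2-fold lower level. All points lie below 0, between -1.34 and -0.97, and only MYB330 passes to the right of the dotted line, with a pseudocount of 1 FPKM and without Xu142fl replicate 1.

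The order of levels among the 3 genes was MYB3 over MYB6 over MYB330 in every library. This order was not used in selecting the genes, and it was tested over the same 6 libraries in which it was seen. The test asks only whether the order recurs between libraries. It cannot tell a difference in RNA level from a bias of FPKM shared by all libraries. MYB3 had 3.35 to 3.98 times the FPKM of MYB6 in the Xu142fl libraries and 3.59 to 4.27 times in the Xu142 libraries. Against MYB330, the ratio of MYB3 was 4.19 to 6.17 in Xu142fl and 5.37 to 5.79 in Xu142. MYB6 was closest to MYB330, at 1.84, 1.23 and 1.12 times its FPKM in Xu142fl replicates 1 to 3 and 1.61, 1.29 and 1.35 times in Xu142 replicates 1 to 3. For each of these 3 pairs, the log2 difference was above 0 in 6 of 6 libraries (exact two-sided sign-flip permutation test, p = 0.03125, which is the lowest possible over 6 libraries, and 0.03125 after Benjamini-Hochberg adjustment over the 3 pairs). Compared across libraries rather than within them, MYB6 and MYB330 overlapped in Xu142fl, where the lowest MYB6 value of 7.26 FPKM lay below the highest MYB330 value of 7.82 FPKM. In Xu142 they did not overlap. The ratio of each pair overlapped between the lines, and a difference in ratio between the lines was not tested.

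Among all genes of a library, MYB3 was highly expressed, and MYB6 and MYB330 ranked lower but above the middle in every library. MYB3 exceeded 90.7 to 92.6% of the 65894 genes in the Xu142fl libraries and 97.2 to 97.6% in the Xu142 libraries. For MYB6 these shares were 63.4 to 72.6% in Xu142fl and 82.4 to 87.2% in Xu142. For MYB330 they were 58.7 to 65.0% in Xu142fl and 77.2 to 78.3% in Xu142. The highest share of MYB6, 87.2% in Xu142 replicate 1, was below the lowest share of MYB3, 90.7% in Xu142fl replicate 2.

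Within the lines, MYB3 varied little from library to library. Its residual SD on the log2 scale was 0.11, where the 2951 genes whose mean log2 level lay within 0.5 of its own had a median of 0.14, and 31.4% of them varied less. MYB6 had a residual SD of 0.22, against a median of 0.16 in 9876 genes of like level, of which 70.8% varied less. MYB330 had 0.19, against a median of 0.17 in 10711 genes, of which 57.4% varied less.

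MYB3 and MYB6 deviated from the means of their lines in the same direction in every library. On the log2 scale, MYB6 lay 0.22, -0.24 and 0.02 from the mean of its line in Xu142fl replicates 1 to 3 and 0.23, -0.20 and -0.02 in Xu142 replicates 1 to 3. MYB3 lay 0.09, -0.13 and 0.04 from its mean in Xu142fl and 0.09, -0.09 and -0.01 in Xu142, so replicate 2 was the lowest library for both genes in both lines. MYB330 had a different course, at -0.20, -0.10 and 0.30 in Xu142fl and 0.03, -0.07 and 0.04 in Xu142. As a measure of likeness, Pearson's r of these deviations was 0.98 for MYB3 with MYB6, 0.21 for MYB3 with MYB330 and 0.02 for MYB6 with MYB330. Each r rests on 6 values of which 4 are free, and the genes share the same libraries. Of the other 45563 genes that averaged 1 FPKM or more, 40 had a higher r of deviations with MYB3 than MYB6 had, and 45 had a higher one with MYB6 than MYB3 had.

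**Figure D3:**
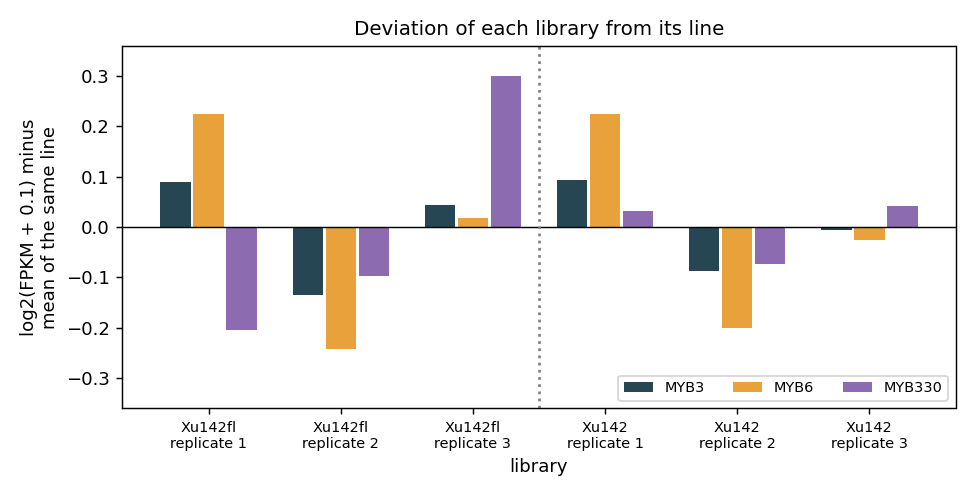
Difference of log2(FPKM + 0.1) from the mean of the same line (vertical axis) for MYB3, MYB6 and MYB330 in each library (horizontal axis), with the Xu142fl libraries left of the dotted line. Bars of MYB3 and MYB6 point the same way in all 6 libraries, while MYB330 lies at -0.20 in Xu142fl replicate 1, where MYB6 lies at 0.22.

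The libraries themselves were not equally close to each other. The second principal component of the tested genes held 23.4% of their variance and placed Xu142fl replicate 1 and Xu142 replicate 2 at 100.5 and 66.6, with the other 4 libraries between -50.3 and -24.0. MYB3 and MYB6 were highest of their line in Xu142fl replicate 1 and lowest of their line in Xu142 replicate 2. MYB330 was lowest of its line in both of these libraries. Without both libraries, the log2 fold changes were -1.32 for MYB3, -1.34 for MYB6 and -1.01 for MYB330. The library totals of FPKM ranged from 804997 to 842738 in Xu142fl and from 827214 to 844877 in Xu142, and size factors from median ratios of genes ranged from 0.958 to 1.03. The part of these libraries in the deviations was not tested.

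Genes with a pattern over the 6 libraries like that of each MYB gene were ranked by Pearson's r of log2(FPKM + 0.1) among these 45563 genes. The 6 libraries fall into 2 groups of 3, so r is high for any gene that is lower in Xu142fl with little scatter, and it is used only to order genes. The closest to MYB3 was Gh_A11G3020 (r = 0.9999), although it had 16.9 ± 0.535 FPKM in Xu142fl and 23.9 ± 0.586 FPKM in Xu142 (SD, n = 3 each), a smaller difference. The next were Gh_D02G0834, with log2 fold change -3.55, and Gh_A12G0808, with -0.44. For MYB6 the closest were BGI_novel_G005521, a predicted new gene, Gh_A12G2121 and Gh_D07G2084, with log2 fold changes of -0.31, -2.75 and -0.25. For MYB330 the closest were Gh_A11G0064, Gh_A06G0018 and Gh_A09G1210, with log2 fold changes of -1.77, -1.41 and -2.04. These IDs carry no names in the deposited table. An r of at least 0.95 was reached by 4.87% of the genes with MYB3, 3.12% with MYB6 and 2.89% with MYB330. Among the members themselves, MYB6 was the 562nd closest gene to MYB3, at r = 0.98, and MYB330 the 1796th, at r = 0.96.

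The surroundings of the 3 genes were described by ID number, since IDs of this annotation carry a running number within a chromosome. Positions in the genome were not analysed here. Of the 30 IDs within 5 numbers of a member, 24 were in the table and 16 passed the filter on low FPKM. Limma called 0 of these 16 genes at these same limits, where 0.750% of all genes were called in either direction, and 0 with the adjusted p limit at 0.05, where the share was 6.14%. An unadjusted p of at most 0.05 was reached by 2 of them, where 29.9% of all genes reached it. Their log2 fold changes ranged from -0.33 to 0.38 with a median of 0.14, beside a median of 0.01 over all genes tested. This median was 0.04 without Xu142fl replicate 2, 0.09 without Xu142fl replicate 1 and 0.09 without Xu142 replicate 1. In 5 of the 16 the lines did not overlap, where 35.0% of all genes did not.

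Around MYB3, all 4 tested neighbours had positive log2 fold changes, from 0.31 to 0.38. Gh_A08G0300, the next ID, had 20.2, 39.35 and 41.06 FPKM in Xu142fl replicates 1 to 3, against 26.24, 18.2 and 30.9 FPKM in Xu142 replicates 1 to 3, and its lines overlapped (limma adjusted p = 0.46). Around MYB6, 7 neighbours had log2 fold changes from -0.27 to 0.33. The ID before it, Gh_A11G1491, had 22.9 ± 1.25 FPKM in Xu142fl and 21.2 ± 1.37 FPKM in Xu142 (SD, n = 3 each, limma adjusted p = 0.45), and the ID after it, Gh_A11G1493, had 5.67 ± 1.71 FPKM in Xu142fl and 5.48 ± 1.11 FPKM in Xu142 (SD, n = 3 each, limma adjusted p = 0.97). For both of these genes, the values of the lines overlapped. Around MYB330, 5 neighbours had log2 fold changes from -0.33 to 0.23. One of them, Gh_D13G1259, named here after its values were seen, passed an adjusted p of 0.05 but not the fold change, with 29.3 ± 2.21 FPKM in Xu142fl and 36.8 ± 0.580 FPKM in Xu142 (SD, n = 3 each, limma adjusted p = 0.045). When each library was left out in turn, its adjusted p lay between 0.018 and 0.17, and it passed 1 of 6 times.

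**Figure D4:**
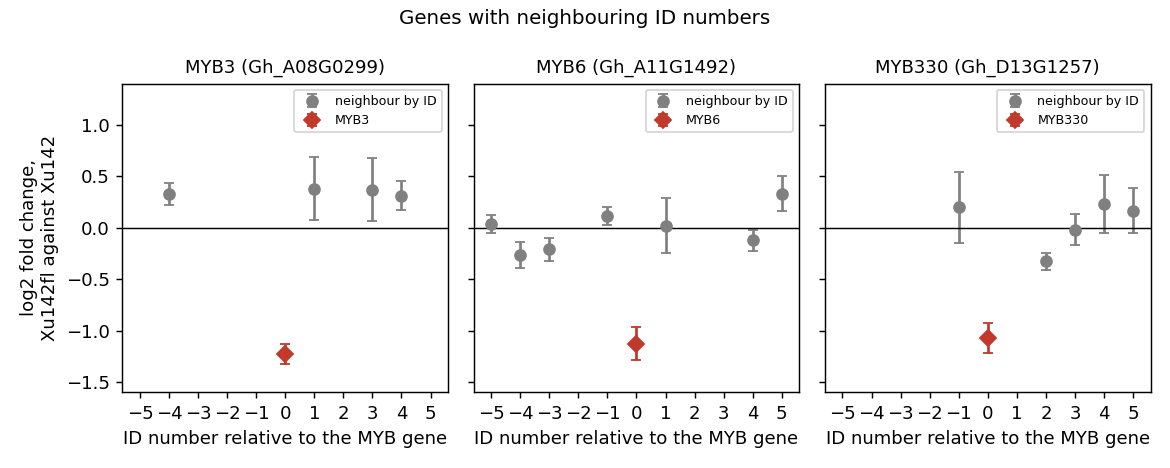
Log2 fold change of Xu142fl against Xu142 (vertical axis) for each MYB gene (red) and for the tested genes whose ID number is within 5 of it (grey), by the difference in ID number (horizontal axis). Bars are limma standard errors. The 16 neighbours lie between -0.33 and 0.38, and the MYB genes between -1.23 and -1.07.

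For comparison, 6 MML genes were taken that the study lists by ID among the genes lower in the mutant, so they too were selected on this contrast. All 6 were lower in Xu142fl with no overlap between lines, by log2 fold changes of -7.25 to -1.84 with a median of -2.40. Some of them were weak even in Xu142, where MML4 on A12 averaged 1.45 FPKM, MML8 on D13 1.34 FPKM and MML8 on A13 1.79 FPKM. The 3 members had a median of -1.13, so each stood closer to its wild type level than any of the 6 did. In Xu142fl, MML3 on D12 (Gh_D12G1628) had 0.18, 0.37 and 0.28 FPKM, against 61.49, 54.55 and 51.83 FPKM in Xu142. MYB3 was of a similar level to this gene in Xu142, at 74.6 ± 4.67 FPKM beside 56.0 ± 4.98 FPKM (SD, n = 3 each), but retained 31.8 ± 2.57 FPKM in Xu142fl, where MML3 on D12 had 0.277 ± 0.0950 FPKM. MML3 on A12 (Gh_A12G1503) had 7.69 ± 0.693 FPKM in Xu142fl and 38.8 ± 4.91 FPKM in Xu142 (SD, n = 3 each), 19.8% of the wild type mean. Both sets were selected on the same contrast, so the difference between them was not tested.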

How the data were processed

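RNA of pooled −3 and −1 DPA ovules was sequenced in 3 libraries of Xu142fl and 3 of Xu142. After read filtering, the authors used Bowtie2 on the TM-1 genome for known genes, predicted new transcripts with HISAT2 (version 2.1.0 in the submitters' processing notes) and StringTie, and obtained expression from RSEM. The authors deposited FPKM values per gene and library, to 2 decimals, with no stated scaling between libraries. The table holds no read counts per gene, so the exact number of reads behind a value is unknown, although the study gives the clean reads of each library. Since RSEM splits reads between near-identical copies, levels of A and D copies are uncertain. Between any pair of libraries, no more than 1.91% of genes shared an identical value above 0.

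FPKM were analysed as log2(FPKM + 0.1) for genes averaging 0.1 FPKM or more, with limma 3.58.1 (intensity trend, Benjamini-Hochberg adjustment over all tested genes) in R 4.3.3. The fold change on this scale understates that of weak genes. The limits of 0.001 and 2-fold are those that the study set for DEGseq, a test that was not run here. The limma code was tested on simulated data. The rest was computed in Python 3.11.15 (numpy 2.4.6, pandas 2.3.3, scipy 1.17.1) and drawn with matplotlib 3.10.9.

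The members and lists were chosen with earlier results of these data known. Named genes are the 3 members, the 6 MML genes with IDs, the 3 genes closest to each member by r, and neighbours by ID past an adjusted p of 0.05 and 2-fold, of which there were 0. The neighbours next in ID and Gh_D13G1259 were named after their values were seen. None of the IDs (0) was found in the RefSeq genes of Gossypium_hirsutum_v2.1, so neither coordinates nor sequences are given. Alternatives were other pseudocounts, filters and scalings, limma without trend or robust, annotated genes alone, a replicate block and libraries left out.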

Additional observations from a re-analysis of the deposited data

How the results depend on the processing

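The log2 fold changes of MYB3, MYB6 and MYB330 stayed below 0 in all 18 alternatives, of which 6 cannot change the estimate of a gene, and moved by less than 1 SD between replicates in the 12 that can. With 1 library left out they ranged from -1.27 to -1.16 for MYB3, -1.24 to -1.01 for MYB6 and -1.22 to -0.97 for MYB330. The count of these genes called at an adjusted p of 0.001 and 2-fold was 1 with all libraries and 0 in limma without trend, with the replicate block, without Xu142 replicate 2 and Xu142fl replicate 1 together, and whenever 1 of the 6 libraries was left out (0 to 0). It was 3 with the adjusted p limit at 0.05. Over all genes, the count called lower was 313. It was 195 in limma without trend, 2 with the replicate block, 101 without both libraries, 18 to 205 with 1 library left out, and 2523 at 0.05. The deviations of same-numbered libraries correlated at -0.25, -0.23 and 0.14 across genes, and Xu142fl replicate 1 correlated best with Xu142 replicate 2 (0.40). With 3 libraries per line, these values cannot settle whether the replicate numbers pair the libraries, and pairing was not tested. None of the 16 neighbours by ID was called in any alternative, while their median log2 fold change of 0.14 ranged from 0.04 to 0.15 with 1 library left out. Median-ratio scaling and quantile normalization moved the median of all genes by 0.01 and 0.04. With no read counts in the table, no interval for counting error could be given.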
